A study of Homo sapiens with 12 samples.

Results

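Mitochondrial ribosomal protein genes were taken as the protein-coding genes whose symbol begins with MRPL or MRPS and a number. The deposited table held 78 such gene identifiers under 76 symbols, of 57905 genes in all. MRPL30 and MRPS17 were each listed under 2 identifiers. The cells were MDA-MB-231, a mesenchymal line from a human breast cancer without hormone receptors or HER2 amplification, and RNA was sequenced 48 h after treatment began. The 4 groups of 3 libraries were vehicle (DMSO with water), SFN at 1 µM, ZA at 0.5 µM, and both compounds at those doses (SFN+ZA). The labels do not spell out SFN and ZA, which in cancer pharmacology commonly stand for sulforaphane and zoledronic acid. Dishes were plated in triplicate from a single cell line, and no label calls the dishes separate cultures, so p-values here reflect the spread among these libraries, part of which may be technical.

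Mitochondria keep a ribosome of their own, which translates the few respiratory chain subunits encoded in mitochondrial DNA. Its RNA comes from mitochondrial DNA, but every one of its proteins is made from nuclear genes and imported. The large subunit joins amino acids and holds the exit tunnel, and the small subunit reads the messenger RNA. Some of the proteins have counterparts in bacterial ribosomes and others are found in mitochondria alone. Oxidative phosphorylation depends on the respiratory chain subunits that this ribosome makes.

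By textbook assignment, 50 of the 78 genes coded for large-subunit proteins and 27 for small-subunit proteins. Among the large-subunit genes 30 had a bacterial counterpart, 17 were specific to mitochondria and MRPL55 was left unclassified. MRPS18A and MRPS30 also counted as large-subunit genes, because their proteins sit there in spite of their symbols. The small-subunit genes comprised 18 with a bacterial counterpart and 9 without. MRPS36 was kept apart, since its protein is now known as an adaptor of the 2-oxoglutarate dehydrogenase complex.

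The base composition of the transcripts bears on the results below, so the first 120 coding bases are shown for 4 genes that moved in opposite ways between libraries. They are written 5′ to 3′ from the GENCODE 29 annotation of GRCh38, with every G and C in capitals.
MRPL12: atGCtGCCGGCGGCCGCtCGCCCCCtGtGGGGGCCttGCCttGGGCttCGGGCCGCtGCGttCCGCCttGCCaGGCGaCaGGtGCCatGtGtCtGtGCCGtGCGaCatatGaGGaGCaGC
MRPL4: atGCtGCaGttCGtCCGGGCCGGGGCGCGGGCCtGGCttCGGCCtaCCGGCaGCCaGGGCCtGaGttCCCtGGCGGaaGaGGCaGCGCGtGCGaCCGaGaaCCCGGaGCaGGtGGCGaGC
MRPL42: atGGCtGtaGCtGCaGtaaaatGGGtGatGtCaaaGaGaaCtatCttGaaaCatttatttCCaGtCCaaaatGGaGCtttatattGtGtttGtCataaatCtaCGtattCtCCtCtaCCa
MRPS10: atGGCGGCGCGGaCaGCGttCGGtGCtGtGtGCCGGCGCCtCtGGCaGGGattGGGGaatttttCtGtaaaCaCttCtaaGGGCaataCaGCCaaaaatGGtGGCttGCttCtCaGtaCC
G and C made up 84 of these 120 bases in MRPL12 on chromosome 17 and 88 in MRPL4 on chromosome 19. They made up 43 in MRPL42 on chromosome 12 and 66 in MRPS10 on chromosome 6. Over the whole coding sequence the GC content was 60.8% for MRPL12, 65.2% for MRPL4, 39.9% for MRPL42 and 41.8% for MRPS10.

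RefSeq promoters, each running from 250 bases before to 50 bases after a gene's start, were matched for 67 of the 76 symbols. The promoters of the genes with the highest levels, MRPL14 and MRPS10, are shown 5′ to 3′ from GRCh38.p14, with matches to the searched motifs in capitals.
MRPL14, chr6:44127259-44127558, minus strand: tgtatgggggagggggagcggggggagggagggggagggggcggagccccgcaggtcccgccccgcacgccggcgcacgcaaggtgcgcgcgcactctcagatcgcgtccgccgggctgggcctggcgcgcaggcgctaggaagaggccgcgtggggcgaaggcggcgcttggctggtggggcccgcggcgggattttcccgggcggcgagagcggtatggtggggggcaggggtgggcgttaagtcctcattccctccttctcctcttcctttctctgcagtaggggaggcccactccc
MRPS10, chr6:42217812-42218111, minus strand: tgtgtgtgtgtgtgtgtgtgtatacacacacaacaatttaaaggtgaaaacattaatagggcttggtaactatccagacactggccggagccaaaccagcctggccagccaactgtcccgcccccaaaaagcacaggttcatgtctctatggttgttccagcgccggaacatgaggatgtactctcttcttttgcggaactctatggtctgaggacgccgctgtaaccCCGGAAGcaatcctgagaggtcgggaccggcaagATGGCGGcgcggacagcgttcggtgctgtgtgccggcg
The motifs searched on both strands were CCGGAAG for ETS factors such as GABPA, ATGGCGG for YY1 and GCATGCG for NRF1, which are known regulators of nuclear genes for mitochondria. The ETS letters were present in 28 of 67 promoters (41.8%), against 12.8% of 22199 promoters of protein-coding genes of the same length. The YY1 letters were present in 23 (34.3%, against 6.99%) and the NRF1 letters in 7 (10.4%, against 4.63%). At least 1 of the 3 motifs was present in 46 of the 67 (68.7%, against 21.6%). Matches of different motifs were counted separately where they overlapped. MRPS10 had an ETS match and a YY1 match, and the YY1 letters there are also the first letters of its coding sequence shown above. MRPL14 had no match, which says only that these letters are not in this window.

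Total counts ranged from 15.3 to 25.4 M (mega) per library. In SFN 2 and vehicle 2, low-GC and high-GC genes lay farthest apart in level, as described below. Results without both are also given for SFN against vehicle, SFN+ZA against vehicle and SFN+ZA against SFN, and in part for ZA against vehicle. SFN 2 and vehicle 2 also had the lowest shares of reads from mitochondrial DNA, 1.6% and 0.775%, where the remaining 10 had 1.89 to 5.3%. The labelled cell line was checked against its markers: the mesenchymal genes VIM and CD44 measured at least 760 CPM (counts scaled to library size) in every library, ESR1 at most 0.124 CPM and PGR was at 0. Of the other genes listed as low in this line, CDH1 reached 2.93 CPM, but ERBB2 at 27.5 to 127 CPM and GATA3 at 11.5 to 20.2 CPM were detected in every library. Of the genes marking other cell types, the blood cell genes CD3E and HBB were at 0 in every library, and PTPRC reached 0.397 CPM. COL1A1 at 1.76 to 17.3 CPM and PDGFRB at 6.86 to 30.1 CPM, which fibroblasts express, were detected throughout, and their part in the results was not tested. In bulk RNA, a lower level in every cell and fewer cells with the transcript cannot be told apart.

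Mitochondrial ribosomal protein genes were well expressed in vehicle-treated cells. Of the 78 identifiers, 75 passed the filter on low counts and entered the tests among 15142 genes. The other 3 were both identifiers of MRPL30, with 6 and 1 reads over all libraries, and MRPS17 ENSG00000249773 with 0. The median level of the 75 was 15.4 FPKM (the authors' fragment counts scaled by gene length and library size), against 6.05 FPKM for 12718 tested protein-coding genes, and 67 of the 75 lay above the latter. The median was 15.6 FPKM over 48 large-subunit genes and 13.5 FPKM over 26 small-subunit genes. Levels above 10 FPKM were found for 54 genes and above 30 FPKM for 13, while 3 were under 1 FPKM.

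MRPL14 (ENSG00000180992, chromosome 6, 44081194 to 44095194, GRCh37/hg19) had the highest level. Its product is a large-subunit protein at the interface of the subunits. It measured 108, 130.0 and 99.4 FPKM in vehicle 1, 2 and 3, a mean of 113 ± 16 (SD, n = 3). MRPS10 (chromosome 6, 42174539 to 42185603), which codes for a protein in the head of the small subunit, measured 85.7, 133 and 101 FPKM, a mean of 106 ± 24 (SD, n = 3). The ranges of these 2 genes overlapped, and both stood clear of the next gene. MRPL41 (chromosome 9, 140445651 to 140447007), for a mitochondria-specific large-subunit protein, followed at 49.1 ± 6.29 FPKM. MRPS18B measured 44.6 ± 3.45 FPKM and MRPS34 44.5 ± 20.8 FPKM (SD, n = 3 each). Along the whole order of 75 genes, 70 of 74 neighbouring pairs overlapped in their vehicle libraries, so most neighbours could not be ranked.

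**Figure D1:**
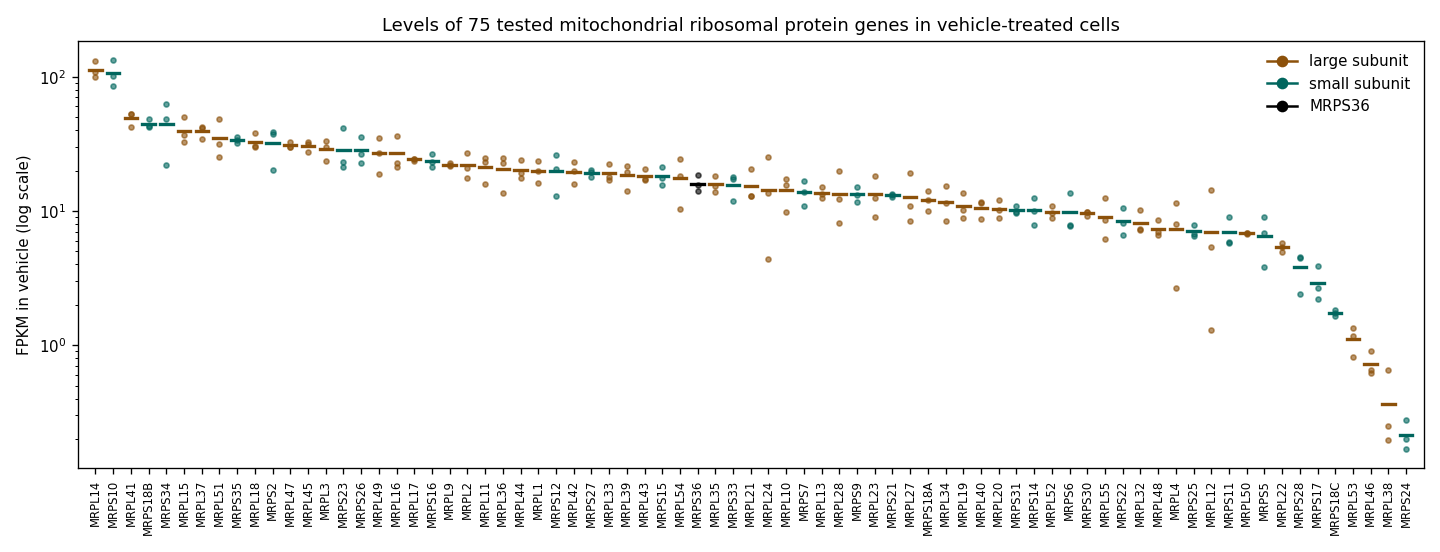
Level of each of the 75 tested genes in the 3 vehicle libraries, in FPKM on a log axis, ordered by mean (bar), with points for libraries and colours for the subunit. MRPL14 and MRPS10 sit at the top near 113 and 106 FPKM, and the 3 genes under 1 FPKM lie at the right end.

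The lowest tested genes were MRPS24 at 0.216 FPKM, MRPL38 at 0.366, MRPL46 at 0.724, MRPL53 at 1.11 and MRPS18C at 1.73 (means of 3 vehicle libraries). Several of these genes lie inside another annotated gene. Over the 78 identifiers, 48 overlapped another gene, 23 of them on the same strand and 37 on the opposite strand. For 7, at least 90% of the gene lay within a protein-coding gene on the same strand, and 6 of these were among the 10 lowest in vehicle. MRPS24 lay fully inside the readthrough gene URGCP-MRPS24, MRPL38 inside RP11-552F3.12, MRPL53 inside CCDC142 (97.9%) and MRPS17 inside GBAS. Both identifiers of MRPL30 lay inside C2orf15, and MRPL12 lay inside SLC25A10 (99.6%). MRPL46 is not counted among the 7, but RP11-97O12.7, a processed transcript with 4 reads over all libraries, covered 97.0% of it on the same strand. How shared reads were counted, and whether strand was used, is not given in the sources used here, so the counts of these genes are uncertain. The same holds for genes overlapped in part or on the opposite strand. Among them are MRPS12, fully inside SARS2 on the opposite strand, and MRPS16, overlapped by DNAJC9 over 35.5% on the same strand. Pseudogenes with MRPL or MRPS symbols, 66 in the table, held counts equal to at most 0.124% of those of the 78 genes in any library.

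The summed level of the 78 genes varied little between groups. It was 3361, 3443 and 3237 CPM in vehicle 1, 2 and 3 and 3163, 3960 and 3129 CPM in SFN 1, 2 and 3. It was 3067, 3193 and 3279 CPM in ZA 1, 2 and 3 and 3153, 3123 and 3084 CPM in SFN+ZA 1, 2 and 3. SFN 2 was the highest of the 12 libraries, and all 3 SFN+ZA libraries lay below all 3 vehicle libraries. Group means were 3347 ± 104, 3417 ± 470, 3180 ± 107 and 3120 ± 34.6 CPM (SD, n = 3 each) in vehicle, SFN, ZA and SFN+ZA. The log2 ratio of the SFN+ZA mean to the vehicle mean was -0.10 (-0.081 without vehicle 2 and SFN 2). The share of counts from mitochondrially encoded genes, whose messages this ribosome translates, was 5.0 ± 0.305% in SFN+ZA, where vehicle had 1.98 ± 1.25% (SD, n = 3 each). No test was made of a sum over chosen genes.

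Within a library the genes separated by GC content. Transcript GC content was known for 73 of the 75 tested genes and ran from 35 to 71.9%, with a median of 50.6%. Each gene's log2(CPM + 0.5) was compared with its own median over the 12 libraries. In SFN 2 the median deviation was 0.87 for the 36 genes below the median GC content and -0.61 for the 37 genes at or above it, against 0.51 and -1.2 for all tested genes split at the same GC content. In vehicle 2 the medians were 0.33 and -0.24, against 0.2 and -0.46 for all tested genes, while in SFN+ZA 1 they ran the other way, at -0.22 and 0.14. Across the 73 genes, which share the library and are no replicates, deviation and GC content had a Spearman's rho of -0.833 in SFN 2, -0.499 in vehicle 2, 0.614 in vehicle 1 and 0.79 in SFN+ZA 1. Vehicle 2 was not set apart by rho, which was -0.581 in vehicle 3, -0.549 in ZA 1, -0.445 in SFN 1 and -0.478 in SFN 3. In the other ZA and SFN+ZA libraries it lay between 0.393 and 0.678. Over all tested genes with a GC value, rho was -0.811 in SFN 2, -0.614 in vehicle 2, 0.545 in vehicle 1 and 0.651 in SFN+ZA 1. In each of the 12 libraries it had the same sign as in the mitochondrial ribosomal protein genes.

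**Figure D2:**
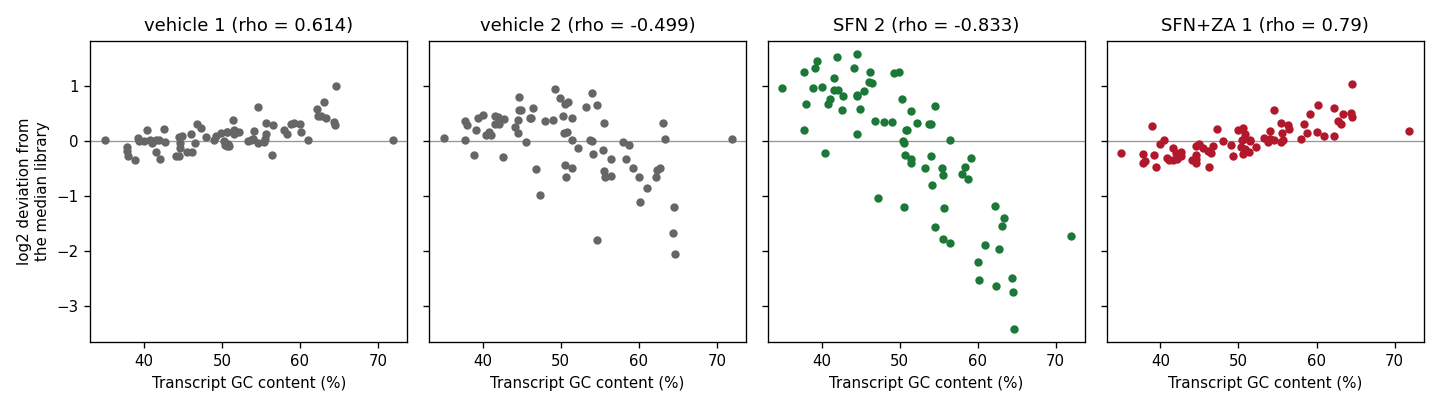
Deviation of each gene from its median over 12 libraries, on the log2(CPM + 0.5) scale, against transcript GC content in percent, for 73 genes in 4 libraries. The points fall with GC content in SFN 2 (rho -0.833) and vehicle 2 (rho -0.499) and rise in vehicle 1 (rho 0.614) and SFN+ZA 1 (rho 0.79).

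In SFN 2, 12 of the 75 genes lay more than 2-fold above their median library and 18 more than 2-fold below it. In vehicle 2, 5 lay more than 2-fold below and 0 above. SFN 2 was the highest of 12 libraries for 33 genes (44%, against 33.8% of all tested genes) and the lowest for 25 (33.3%, against 38.4%). Of the 36 low-GC genes 28 were highest there, and of the 37 high-GC genes 23 were lowest there. The median coefficient of variation was 25.8% over 12 libraries and 12.2% over the 10 without vehicle 2 and SFN 2, against 26.7% and 14.6% for all tested genes.

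**Figure D3:**
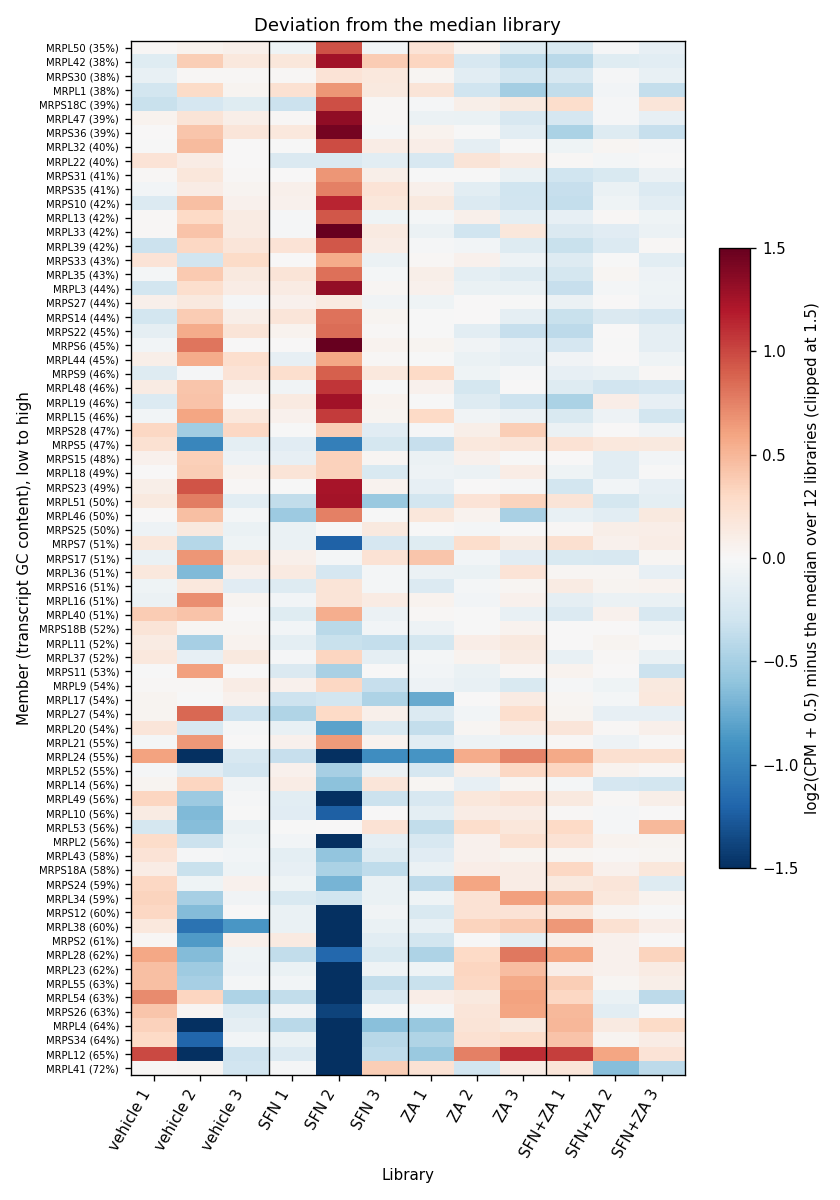
Deviation from the median library, as log2(CPM + 0.5) clipped at 1.5, for 73 genes ordered from low (35%) to high (72%) transcript GC content in 12 libraries. The SFN 2 column runs from higher to lower values down the order, with a like but weaker change in vehicle 2.

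MRPL12 (ENSG00000262814, chromosome 17, 79670387 to 79674556), which codes for the stalk protein that recruits translation factors to the large subunit, varied most between libraries among the named genes. It measured 14.8, 1.35 and 5.73 CPM in vehicle 1, 2 and 3 and 6.2, 0.227 and 5.41 CPM in SFN 1, 2 and 3. It measured 4.73, 12.5 and 16.1 CPM in ZA 1, 2 and 3 and 15.3, 11.1 and 8.34 CPM in SFN+ZA 1, 2 and 3. Only 4 reads were counted in SFN 2 and 24 in vehicle 2, and vehicle 1 lay within the range of the ZA and SFN+ZA libraries while vehicle 2 lay below all of them. Its reads may also be shared with SLC25A10.

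MRPL42 (chromosome 12, 93861264 to 93897545), a mitochondria-specific large-subunit gene whose coding start is rich in A and T, had the opposite pattern. It measured 63.5, 92.8 and 80.1 CPM in vehicle 1, 2 and 3 and 81.0, 173 and 94.1 CPM in SFN 1, 2 and 3. It measured 90.2, 60.8 and 55.0 CPM in ZA 1, 2 and 3 and 54.3, 63.4 and 64.7 CPM in SFN+ZA 1, 2 and 3. SFN 2 was the highest library, and all SFN libraries lay above all SFN+ZA libraries. MRPS10, shown above, likewise had its highest value in SFN 2, at 463 CPM against 164 to 285 CPM in the others.

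**Figure D4:**
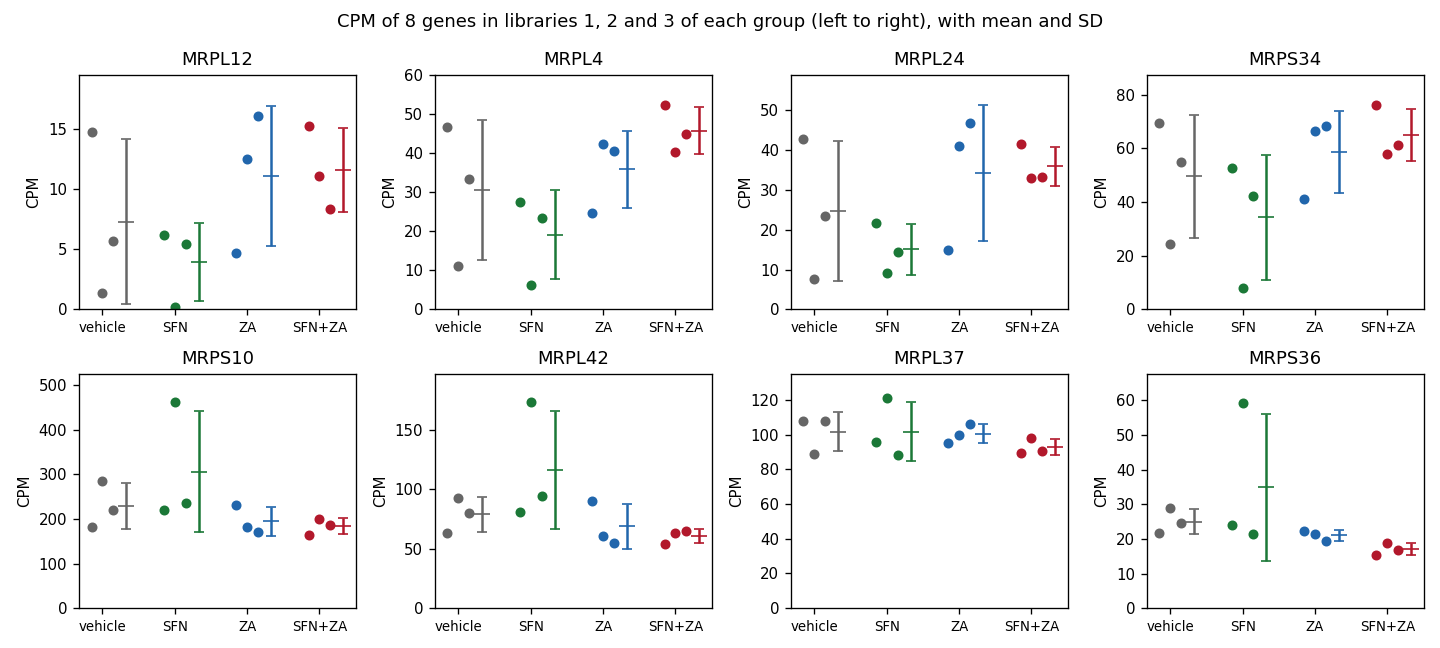
CPM of 8 genes in libraries 1, 2 and 3 of each group from left to right, with the group mean and SD beside the points. MRPL12 is lowest and MRPL42 highest in SFN 2, at 0.227 and 173 CPM, and MRPS36 lies between 15.4 and 18.8 CPM in SFN+ZA.

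The first comparison, SFN against vehicle, concerns the effect of SFN alone on these transcripts. None of the 75 genes passed edgeR's quasi-likelihood F test at a Benjamini-Hochberg adjusted p under 0.05, where 0% of 15142 genes were called in either direction. At an unadjusted p under 0.05, 1 lay higher and 2 lower, against 3.08% and 1.9% of all genes, and DESeq2's Wald test called 0 of the 75. The median log2 fold change was -0.022, against -0.0094 for all genes, with 36 genes above 0 and 39 below. The low-GC genes had a median of 0.21 and the high-GC genes of -0.25, against 0.21 and -0.28 for all genes so split. Both medians thus lay close to those of all genes of like GC content.

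The 5 highest log2 fold changes after SFN were those of MRPS18C at 0.61 ± 0.29, MRPL3 at 0.57 ± 0.30, MRPL42 at 0.56 ± 0.29, MRPL33 at 0.53 ± 0.35 and MRPL53 at 0.50 ± 0.30 (SE). The 5 lowest were those of MRPL54 at -0.91 ± 0.39, MRPL12 at -0.88 ± 0.94, MRPL24 at -0.70 ± 0.57, MRPL4 at -0.68 ± 0.55 and MRPL55 at -0.63 ± 0.45 (SE). None of these 10 passed, with adjusted p of 0.73 for all but MRPL12, at 0.76 (edgeR). MRPL4 and MRPL24 code for proteins beside the exit tunnel, and MRPL3 for a protein that reaches the peptidyl transferase centre. SFN and vehicle libraries did not overlap for 1 gene that lay higher (1.33%, against 4.4% of all genes) and 4 that lay lower (5.33%, against 3.48%). Without vehicle 2 and SFN 2, with 2 libraries in each of these groups, they did not overlap for 8 higher (10.7%, against 24.6%) and 29 lower (38.7%, against 23%). In that fit the median was -0.068, against 0.0028 for all genes, and 0 of the 75 genes were called, as were 0% of all genes.

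MRPL44 (chromosome 2, 224822121 to 224832431), for a large-subunit protein with a ribonuclease III-like fold near the exit tunnel, had low values in ZA and in SFN+ZA. It measured 31.0, 43.0 and 34.6 CPM in vehicle 1, 2 and 3 and 29, 27.2 and 26.5 CPM in ZA 1, 2 and 3. All ZA libraries lay below all vehicle libraries, as did all SFN+ZA libraries, with a mean of 28.4 ± 0.728 CPM (SD, n = 3). For ZA against vehicle the log2 fold change was -0.39 ± 0.20, which did not pass (edgeR adjusted p = 0.98). Without vehicle 2 and SFN 2 and with a GC offset it was -0.26 ± 0.089, and did not pass either (edgeR adjusted p = 0.6).

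For ZA alone against vehicle, 0 of 75 genes were called, with 0% of all genes called in either direction, and DESeq2 called 0. At an unadjusted p under 0.05, 0 of 75 lay past the threshold, against 0.799% of all genes higher and 0.343% lower. The median log2 fold change was -0.090, against 0.0041 for all genes, and 47 of 75 lay below 0 (62.7%, against 49.3%). The lowest were MRPS23 at -0.47 ± 0.34, MRPS22 at -0.40 ± 0.25, MRPL44 as given, MRPS6 at -0.36 ± 0.39 and MRPL21 at -0.35 ± 0.22 (SE). The highest were MRPL38 at 0.90 ± 0.82, MRPL12 at 0.61 ± 0.92, MRPL24 at 0.48 ± 0.57, MRPL53 at 0.47 ± 0.30 and MRPS18C at 0.34 ± 0.29 (SE). Groups did not overlap for 1 gene that lay higher (1.33%, against 4.48%) and 7 that lay lower (9.33%, against 3.05%). Without vehicle 2 and SFN 2 they did not overlap for 2 higher (2.67%, against 7.7%) and 10 lower (13.3%, against 6.36%).

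The combination against vehicle asks what both compounds together did. None of the 75 genes was called, where 0% of all genes were called in either direction, and DESeq2 called 0 of the 75. DESeq2 called 0.132% of all genes higher and 0.0066% lower there. At an unadjusted p under 0.05, 1 gene lay higher and 0 lower, against 2.92% and 1.99% of all genes. The median log2 fold change was -0.17, against 0.011 for all genes, and 48 of 75 lay below 0 (64.0%, against 48.9%). The median was -0.17 over large-subunit and -0.13 over small-subunit genes. Low-GC genes had a median of -0.24 and high-GC genes of 0.092, against -0.14 and 0.23 for all genes so split. Groups did not overlap for 3 genes that lay higher (4.0%, against 11.5%) and 15 that lay lower (20%, against 9.63%).

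The lowest log2 fold changes in that comparison were those of MRPS23 at -0.565 ± 0.34, MRPS36 at -0.55 ± 0.33, MRPL48 at -0.47 ± 0.28, MRPS17 at -0.46 ± 0.25 and MRPL15 at -0.45 ± 0.28 (SE). The highest were those of MRPL38 at 1.04 ± 0.83, MRPL53 at 0.73 ± 0.30, MRPL12 at 0.675 ± 0.92, MRPL4 at 0.59 ± 0.55 and MRPL24 at 0.55 ± 0.57 (SE). Adjusted p was 0.86 for all 10 except MRPL12, at 0.87 (edgeR). MRPL53, MRPL38, MRPL12 and MRPS17 are among the genes enclosed by another gene, so their counts are uncertain.

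Without vehicle 2 and SFN 2, the median of SFN+ZA against vehicle was -0.10, with 59 of 75 genes below 0 (78.7%, against 54.0% of all genes). In that fit 0 of the 75 were called, against 0.332% of all genes higher and 0.00651% lower. With an offset for GC content added to that fit, the median was -0.15, against -0.062 for all genes, and 63 of 75 lay below 0 (84.0%, against 61.3%). There 2 of the 75 genes fell, MRPL37 and MRPS36, and 0 rose, against 2.08% of all genes called lower and 1.75% called higher. Their share was thus near the background.

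MRPL37 (chromosome 1, 54649714 to 54691137) codes for a mitochondria-specific large-subunit protein. It measured 108, 88.7 and 108 CPM in vehicle 1, 2 and 3 and 89.6, 98.1 and 90.3 CPM in SFN+ZA 1, 2 and 3. Without vehicle 2 the groups did not overlap, and with it they did. Its log2 fold change was -0.13 ± 0.15 over all 12 libraries (edgeR adjusted p = 0.86) and -0.30 ± 0.074 over 10 with the GC offset (edgeR adjusted p = 0.037).

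MRPS36 (chromosome 5, 68513587 to 68525956), the dehydrogenase adaptor, measured 21.6, 28.8 and 24.5 CPM in vehicle 1, 2 and 3 and 24.1, 59.3 and 21.3 CPM in SFN 1, 2 and 3. It measured 22.4, 21.5 and 19.3 CPM in ZA 1, 2 and 3 and 15.4, 18.8 and 16.8 CPM in SFN+ZA 1, 2 and 3. The 3 SFN+ZA libraries were the lowest of all 12 and overlapped with no other group. Against vehicle its log2 fold change was -0.55 ± 0.33 over 12 libraries (edgeR adjusted p = 0.86) and -0.43 ± 0.11 over 10 with the GC offset (edgeR adjusted p = 0.046). In the authors' deposited table it had the lowest unadjusted p of these genes for that comparison, 0.0079 with a log2 fold change of -0.56. Of 76 of these genes with an adjusted p in that table, 0 were under 0.05, against 44 of 24615 over all genes.

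SFN+ZA against SFN showed the widest spread of fold changes, from -1.04 to 1.56. None of the 75 genes was called, where 0% of all genes were called, and DESeq2 called 0 of them, against 0.033% of all genes higher and 0.0066% lower. At an unadjusted p under 0.05, 3 lay higher and 18 lower, against 6.43% and 15.4% of all genes. The median log2 fold change was -0.13, against 0.045 for all genes. Low-GC genes had a median of -0.49 with 32 of 36 below 0, and high-GC genes of 0.41 with 28 of 37 above 0, against -0.33 and 0.54 for all genes so split. Groups did not overlap for 20 genes that lay higher (26.7%, against 23.4%) and 21 that lay lower (28%, against 23.7%), which is near the background. A GC offset moved the median of all genes in this comparison from 0.045 to -0.068, and that of the 75 genes to -0.21.

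The lowest log2 fold changes between SFN+ZA and SFN were those of MRPS36 at -1.04 ± 0.33, MRPL42 at -0.93 ± 0.29, MRPL33 at -0.90 ± 0.35, MRPS6 at -0.88 ± 0.39 and MRPL3 at -0.755 ± 0.305 (SE). The highest were those of MRPL12 at 1.56 ± 0.95, MRPL4 at 1.26 ± 0.56, MRPL24 at 1.25 ± 0.58, MRPL38 at 1.13 ± 0.83 and MRPS34 at 0.93 ± 0.56 (SE). Adjusted p of these 10 genes ran from 0.22 to 0.37, the latter for MRPL38 (edgeR). In the authors' deposited table MRPL24 had the lowest unadjusted p, 0.00083 with a log2 fold change of 1.26, and the lowest adjusted p of these genes was 0.3. Of the genes with the highest values, MRPL4 measured 27.6, 6.18 and 23.5 CPM in SFN 1, 2 and 3 and 52.3, 40.3 and 44.8 CPM in SFN+ZA 1, 2 and 3. Its SFN and SFN+ZA libraries did not overlap, although vehicle 1 at 46.8 and vehicle 2 at 11.2 CPM spanned most of that range.

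MRPL14, which had the highest mean FPKM in vehicle, measured 110.0, 66.0 and 115 CPM in SFN 1, 2 and 3 and 99.2, 84.8 and 83.3 CPM in SFN+ZA 1, 2 and 3. SFN 2 lay below every SFN+ZA library, and SFN 1 and 3 lay above them. Its log2 fold change was -0.12 ± 0.20 over 12 libraries (edgeR adjusted p = 0.68). Without vehicle 2 and SFN 2 and with the GC offset it fell, at -0.54 ± 0.092 (edgeR adjusted p = 0.028), as the only 1 of 75, against 0.156% of all genes called lower. Without the offset in the 10 libraries 0 of the 75 were called, as were 0% of all genes. Only 2 SFN libraries entered these fits. The rho of deviation with GC content was -0.445 in SFN 1, -0.478 in SFN 3 and 0.393 to 0.79 in SFN+ZA. The GC trend thus went with the groups, and its part in the offset value cannot be told apart from treatment.

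SFN+ZA against ZA gave the narrowest spread, from -0.34 to 0.355. None of the 75 genes was called, where 0% of all genes were, 0 passed an unadjusted p of 0.05 (against 0.614% and 0.436% of all genes), and DESeq2 called 0. The median was -0.036, against -0.0021 for all genes. The lowest were MRPL54 at -0.34 ± 0.38, MRPS36 at -0.31 ± 0.33, MRPL41 at -0.27 ± 0.42, MRPS17 at -0.26 ± 0.25 and MRPL15 at -0.25 ± 0.28 (SE). The highest were MRPL4 at 0.355 ± 0.55, MRPL53 at 0.26 ± 0.30, MRPL17 at 0.22 ± 0.20, MRPS2 at 0.19 ± 0.41 and MRPL9 at 0.16 ± 0.17 (SE). Groups did not overlap for 4 genes that lay higher (5.33%, against 6.99%) and 4 that lay lower (5.33%, against 5.77%).

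The interaction, the log2 effect of both compounds minus the sum of their single effects, was called for 0 of 75 genes, where 0% of all genes were called, and DESeq2 called 0. No gene passed an unadjusted p of 0.05 (0 of 75, against 0.634% and 1.06% of all genes). Its median was 0.010, against 0.036 for all genes. It ran from -0.79 ± 0.47 in MRPS36, followed by MRPL42 at -0.73 ± 0.41, MRPL3 at -0.67 ± 0.43, MRPL33 at -0.63 ± 0.50 and MRPS9 at -0.63 ± 0.30, to 1.03 ± 0.78 in MRPL4 (SE). Below MRPL4 came MRPL12 at 0.95 ± 1.31, MRPL24 at 0.77 ± 0.81, MRPS34 at 0.68 ± 0.79 and MRPL28 at 0.63 ± 0.55 (SE). These comparisons share libraries, and the vehicle and SFN libraries enter several of them.

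**Figure D5:**
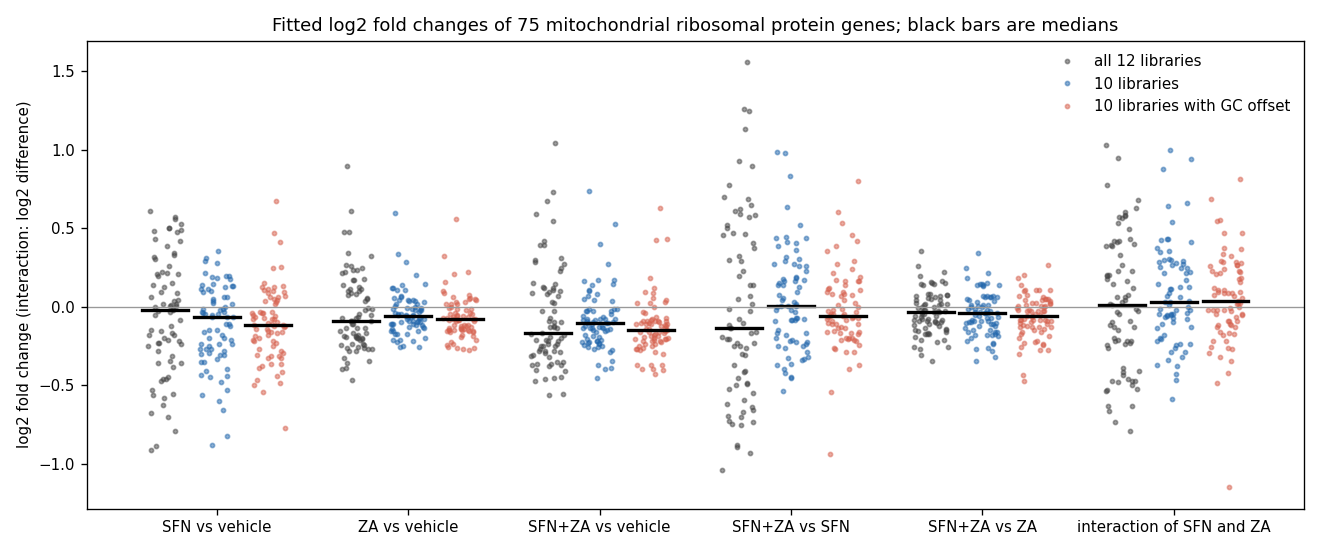
Fitted log2 fold changes of the 75 genes in 6 comparisons, with all 12 libraries, with 10 libraries and with 10 libraries and a GC offset, where each point is a gene and each bar the median. The spread for SFN+ZA against SFN runs from -1.04 to 1.56 with 12 libraries and is narrower without vehicle 2 and SFN 2.

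Further genes were described for their known roles, whatever their values, each with its range of log2 fold changes over the 6 comparisons. Of the landmark genes described above, MRPL12 ran from -0.88 to 1.56, MRPL3 from -0.755 to 0.57, MRPS36 from -1.04 to 0.485, MRPL44 from -0.39 to 0.16 and MRPL37 from -0.13 to 0.0025. None was called with 12 libraries. MRPS18A, MRPS18B and MRPS18C descend from 1 bacterial protein, S18, and differed in level. MRPS18A (chromosome 6, 43639040 to 43655528) measured 12.1 ± 2.0 FPKM in vehicle, MRPS18B (chromosome 6, 30585486 to 30594172) 44.6 ± 3.45 FPKM and MRPS18C (chromosome 4, 84377085 to 84390888) 1.73 ± 0.0841 FPKM (SD, n = 3 each). Their vehicle libraries did not overlap. MRPS18C overlaps FAM175A on the opposite strand over 63.7% of its length, so its count is uncertain.

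Across treatments MRPS18B was the steadiest of these, at 85.6 ± 5.72 CPM in vehicle, 72.6 ± 10.2 in SFN, 80.4 ± 3.73 in ZA and 79.9 ± 2.25 in SFN+ZA (SD, n = 3 each). Its log2 fold changes ran from -0.24 ± 0.13 for SFN against vehicle to 0.23 ± 0.19 for the interaction. MRPS18C measured 8.06, 8.59 and 9.07 CPM in vehicle 1, 2 and 3 and 12.5, 10.2 and 11.7 CPM in SFN+ZA 1, 2 and 3. Its SFN+ZA and ZA libraries lay above every vehicle library, and its log2 fold change for SFN+ZA against vehicle of 0.42 ± 0.29 did not pass (edgeR adjusted p = 0.86). Over the comparisons MRPS18C ran from -0.54 ± 0.41 for the interaction to 0.61 ± 0.29 for SFN against vehicle. MRPS18A had 15.7 ± 2.5 CPM (vehicle) and 19 ± 1.72 CPM (SFN+ZA; SD, n = 3 each), and the log2 difference was 0.27 ± 0.17 (edgeR adjusted p = 0.86). It ran from -0.25 ± 0.175 for SFN against vehicle to 0.52 ± 0.175 for SFN+ZA against SFN.

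In the large subunit, MRPL11 at the base of the stalk had log2 fold changes between -0.20 ± 0.18 (SFN against vehicle) and 0.30 ± 0.18 (SFN+ZA against SFN) over the 6 comparisons. MRPL23, beside the tunnel exit, ran from -0.56 ± 0.52 to 0.65 ± 0.52 in the same comparisons. Its high-GC transcript measured 6.06 CPM in SFN 2 against 27.5 to 55.5 CPM in the other libraries. MRPS30 had CPM values from 50.7 to 71.0 over all 12 libraries, and its log2 fold changes stayed between -0.25 ± 0.13 and 0.15 ± 0.13.

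In the small subunit, MRPS12, whose protein lines the decoding centre, ran from -0.45 ± 0.45 for SFN against vehicle to 0.57 ± 0.45 for SFN+ZA against SFN. The counts of MRPS12, and of MRPS16 below, are uncertain for the overlaps given above. MRPS12 measured 9.41 CPM in SFN 2 and 28.4 to 55.8 CPM in the others. MRPS2 likewise had its lowest value in SFN 2, at 24.4 CPM against 50.5 to 100 CPM, and ran from -0.22 ± 0.41 to 0.47 ± 0.41 in the same comparisons. MRPS16, mutated in a human disorder of mitochondrial translation, was steady, at 71.1 to 94.1 CPM in all 12 libraries, with log2 fold changes from -0.049 ± 0.14 for ZA against vehicle to 0.14 ± 0.14 for SFN+ZA against ZA. MRPS22, also a disease gene, measured 35.6, 57.7 and 44.7 CPM in vehicle 1, 2 and 3 and 29.6, 39.4 and 35.5 CPM in SFN+ZA 1, 2 and 3. The groups overlapped, and its log2 fold change was -0.40 ± 0.25 (edgeR adjusted p = 0.86). Its values ran from -0.525 ± 0.25 for SFN+ZA against SFN to 0.12 ± 0.25 for SFN against vehicle.

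Genes that act with the mitochondrial ribosome were read from lists, and in each of the 6 comparisons 0 of their genes were called with all 12 libraries, as for 0% of all genes. Medians for SFN+ZA against vehicle are given with 12 libraries, then with 10, then with 10 and the GC offset. The 7 mitoribosomal proteins with other symbols, such as DAP3 and PTCD3, had a median log2 fold change of 0.096, -0.062 and -0.16, so its sign turned. The 16 translation factors, which include the elongation factor gene TUFM, had -0.094, -0.028 and -0.043. The 20 mitochondrial tRNA synthetases had -0.037, -0.040 and -0.075. None of these 3 lists had a called gene in any of the 3 fits. For SFN+ZA against vehicle, 0.332% of all genes were called higher and 0.00651% lower with 10 libraries. With the GC offset added, 1.75% were called higher and 2.08% lower. The 5 transcription genes, such as TFAM and POLRMT, had -0.34, -0.115 and -0.084. The 8 regulators, such as NRF1, GABPA and YY1, had 0.10, 0.049 and -0.0050, so that sign turned as well. For all genes the medians were 0.011, -0.022 and -0.062.

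Among 24 assembly factors, which build and modify the ribosomal subunits, 0 were called with 12 libraries and with 10. The share of all genes called with 10 libraries in SFN+ZA against vehicle was 0.332% higher and 0.00651% lower. With 10 libraries and the GC offset, the GTPase gene MTG1 rose and the ribosomal RNA methyltransferase gene FTSJ2 fell in SFN+ZA against vehicle (2 of 24, against 1.75% of all genes higher and 2.08% lower). MTG1 went from 2.67 ± 0.817 CPM (vehicle) to 5.35 ± 0.941 CPM (SFN+ZA), and FTSJ2 from 39.7 ± 2.0 to 31.8 ± 2.38 CPM (SD, n = 3 each). These means carry no offset and include vehicle 2, which that fit leaves out and where MTG1 measured 3.59 CPM and FTSJ2 40.4 CPM.

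The 13 mitochondrially encoded messages, the templates of this ribosome, had a median log2 fold change of 0.76 for SFN, 1.39 for ZA and 1.51 for SFN+ZA against vehicle, with 13 of 13 above 0 in each and 0 called with 12 libraries. Without vehicle 2 and SFN 2 the medians were 0.74, 0.91 and 1.08, with 13, 13 and 12 of 13 above 0. In those 10 libraries 5 of 13 rose in SFN+ZA (MT-CO1, MT-CYB, MT-ND1, MT-ND2 and MT-ND5), against 0.332% of all genes called higher. With the GC offset 2 of 13 rose (MT-ATP8 and MT-ND2), against 1.75% of all genes called higher. MT-ATP8 had few reads, at most 4.08 CPM in any library. The nuclear genes for the ribosomal proteins had a median of -0.10 in that same fit of 10 libraries. The part of the differing mitochondrial read share between libraries in these values was not tested.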

How the data were processed

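Total RNA of 12 MDA-MB-231 libraries was sequenced on an Illumina protocol, per the labels' protocols. A single table deposited by the authors holds raw counts of reads, FPKM values and gene lengths on GRCh37/hg19. The submitters' processing notes name HISAT2 without a version, and the sources used here give neither the counter nor the use of strand. The authors' deposited log2 fold changes and p-values were read only where named. Columns of per-sample values without a sample numbered 0.

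The test was edgeR 4.0.16 (R 4.3.3) on the deposited counts: filterByExpr (15142 genes), TMM scaling, 1 mean per group over all 12 libraries, a robust quasi-likelihood F test, two-sided, and Benjamini-Hochberg adjustment over all genes, with calls at an adjusted p under 0.05. The SE was obtained as the fold change (log2) over the root of F. CPM used TMM-scaled totals, and each SD covers the 3 libraries of its group. Alternatives were DESeq2 1.42.0 and its size factors, no filter, 1 CPM in 3 libraries, a block for the replicate number, the compared groups alone, each library left out in turn, fits without vehicle 2 and SFN 2 (10 libraries), and an offset per library from a smoothing spline with 6 df of log2 CPM deviation on transcript GC content. GC content came from GENCODE 29 by Ensembl identifier and was found for 97.4% of tested genes. Simulated counts with known changes in SFN+ZA against vehicle were run through the 12-library fit, the GC offset, 10 libraries and DESeq2's Wald test. They held no GC trend per library, and the fit of 10 libraries with the GC offset was not run on them.

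Named genes were every called gene, the 5 highest and 5 lowest fold changes in each comparison at a mean of 1 CPM or more, the 5 highest and 5 lowest levels in vehicle, and a set of landmark genes. MRPL37, MRPS36 and MRPL14 are named for calls outside the 12-library fit, and MRPL42, MRPS10, MTG1, FTSJ2 and the mitochondrially encoded genes were further described after their values were seen. The genes, the lists and the tests were chosen with earlier results of these data known.

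Same-numbered SFN and vehicle libraries deviated together over all genes (r of 0.264 to 0.627, above 0.1 in all 3 pairs), which meets the rule used here for pairing, although no label states it. The SFN values and SE given above come from the fit without pairing, and values with a replicate block are given at the end. Vehicle 1 correlated with SFN 1 (r = 0.5917) and also with SFN 3 (r = 0.4997). Vehicle 3 correlated more with SFN 1 (r = 0.3579) than with SFN 3 (r = 0.2639). Vehicle 2 correlated with SFN 2 (r = 0.6274) and negatively with SFN 1 and SFN 3. These values do not settle whether the libraries were paired. Over all groups, same-numbered libraries did not deviate together (lowest r of -0.499).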

Additional observations from a re-analysis of the deposited data

How the results depend on the processing

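With all 12 libraries, 0 of the 75 genes were called in the 6 comparisons under every alternative run: DESeq2 and its size factors, both other filters, the compared groups alone, the GC offset, the replicate block and each library left out. Calls among the 75 appeared only without vehicle 2 and SFN 2 with the GC offset: 2 for SFN+ZA against vehicle and 1 for SFN+ZA against SFN. Over all genes that fit called 588 for SFN+ZA against vehicle, 40 against SFN, 15 against ZA and 10 for ZA against vehicle. The 10 libraries without the offset called 52 for SFN+ZA against vehicle. DESeq2's Wald test called 21 for SFN+ZA against vehicle and 6 against SFN. For SFN+ZA against vehicle the offset with 12 libraries called 0, so neither change alone gave the count of both together.

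The median log2 fold change of the 75 genes moved to -0.116 for SFN against vehicle (10 libraries with the GC offset) and to 0.0072 for SFN+ZA against SFN (10 libraries). The interaction median moved to -0.091 with the GC offset and to -0.092 with the replicate block and the GC offset; the causes were not tested. Leaving out each library in turn gave medians from -0.148 to 0.0275 for SFN against vehicle, -0.117 to -0.0509 for ZA, -0.193 to -0.0876 for SFN+ZA, -0.215 to 0.0071 for SFN+ZA against SFN, -0.0701 to -0.0253 for SFN+ZA against ZA and -0.0579 to 0.0868 for the interaction. It gave 0 to 19 called genes over all genes for SFN+ZA against vehicle (19 without SFN 2) and 0 to 0 in the other 5 comparisons. The replicate block left the SFN median at -0.031, and -0.047 with SFN and vehicle alone, and changed no call of these genes. The SE of single genes differed between fits. With SFN and vehicle alone, MRPL4 was -0.71 ± 0.18 and MRPL12 -1.07 ± 0.47 (SE), narrower than without the block. MRPL54 at -0.96 ± 0.45 and MRPS18C at 0.49 ± 0.33 (SE) were wider. These fits differ in their libraries as well as in the block, and the part of each in the SE was not tested. With the block and SFN and vehicle alone, adjusted p was 0.51 for MRPL4, MRPL12 and MRPL54 and 0.52 for MRPS18C (edgeR).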
